A study of Mus musculus with 6 samples.

Results

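The circadian clock genes described here are 10 mouse genes, Nr1d1, Nr1d2, Per1, Per3, Clock, Cry1, Cry2, Dbp, Tef and Hlf, followed across 6 liver RNA-seq libraries. They were chosen by gene symbol from a fixed list, and each of the 10 had 1 row among the 24927 rows of the deposited tables. Per2 and Npas2, which also belong to the clock, were not analysed here, because the symbols of the chromosome 1 rows did not match their values. Of the libraries, 3 carried the genotype label Cdkl3-/- (below, the libraries labelled knockout) and 3 the label wild type. Cdkl3 encodes a kinase of the cyclin-dependent kinase-like family, and per the series' design text it was removed in the liver. The promoter or other means of the deletion is not given in the sources used here. All samples were labelled as whole liver of male C57BL/6 mice, 10 months of age, kept on chow under a light/dark cycle with free access to food. The hour of day at which the livers were taken, on which levels of clock transcripts depend, is not given in the sources used here. Nothing in the labels ties a library to a mouse of its own, so p-values below reflect only how far these libraries lay apart, which may be technical.

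The mammalian clock is a set of feedback loops between transcription factors. CLOCK and its partner BMAL1 (gene Arntl) bind E-box sequences and switch on the Per and Cry genes, whose proteins then block CLOCK and BMAL1. In a further loop the nuclear receptors REV-ERB alpha and beta (Nr1d1 and Nr1d2) repress Arntl through ROR elements, which ROR receptors activate, and the PAR bZIP factors DBP, TEF and HLF act on D-box sequences in clock and metabolic genes. In liver the transcripts of most of these genes rise and fall each day, and feeding time can shift them.

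Several features of the libraries bear on all values below. Values are in FPKM, fragments scaled to transcript length and to library depth. What 1 read was worth could be worked out from the low values, and it put the depth at 24529844 to 39553550 reads counted on genes in the libraries labelled knockout and 20460939 to 48614290 in those labelled wild type. Cdkl3, the targeted gene, measured 0.139 ± 0.060 FPKM in the libraries labelled knockout and 0.124 ± 0.039 FPKM in those labelled wild type (SD, n = 3 each), so it did not separate the labels. The sex-linked genes went against the label male in 3 of 6 libraries. Xist, expressed from the inactive X chromosome, was at most 0.0273 FPKM in the libraries labelled knockout and 192 to 292 FPKM in those labelled wild type, while the Y-linked gene Ddx3y was at 38.2 to 50.8 FPKM in the libraries labelled knockout and at most 0.207 FPKM in those labelled wild type. Genotype label and sex therefore cannot be told apart in any difference below. Knockout replicate 1 stood apart with 5260 FPKM of the kidney transcript Kap, against at most 5.72 FPKM in the other libraries, and the clock gene calls and the counts over other pathway genes are also given without it. Mitochondrial transcripts took 63.2% to 70.1% of all FPKM in the libraries labelled knockout and 70.5% to 73.9% in those labelled wild type.

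Of the 10 clock genes, 6 reached 1 FPKM in at least 3 libraries and could be tested: Nr1d2, Per3, Cry1, Clock, Tef and Hlf. In the libraries labelled knockout Nr1d2, Per3 and Cry1 were lower, Clock was higher, and Tef and Hlf did not pass the test. The fit was limma on log2(FPKM + 1) over 5673 genes, with Benjamini-Hochberg adjusted p under 0.05 as the threshold. Over all genes tested 20.4% were lower and 33.7% higher in the libraries labelled knockout, so calls were common throughout the transcriptome. Per3 reached 1 FPKM only in the libraries labelled wild type and so had to be lower in order to be tested at all. Nr1d1, Per1, Cry2 and Dbp were under the filter and are given by their values and reads. The groups did not overlap for 6 of the 10 genes. These were the tested genes Nr1d2, Per3, Cry1 and Clock, with Cry2 and Dbp from under the filter. Over all tested genes this held for 63.9%, with the libraries labelled knockout above in 38.0% and below in 25.8%. That share does not cover genes under the filter such as Cry2 and Dbp.

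**Figure D1:**
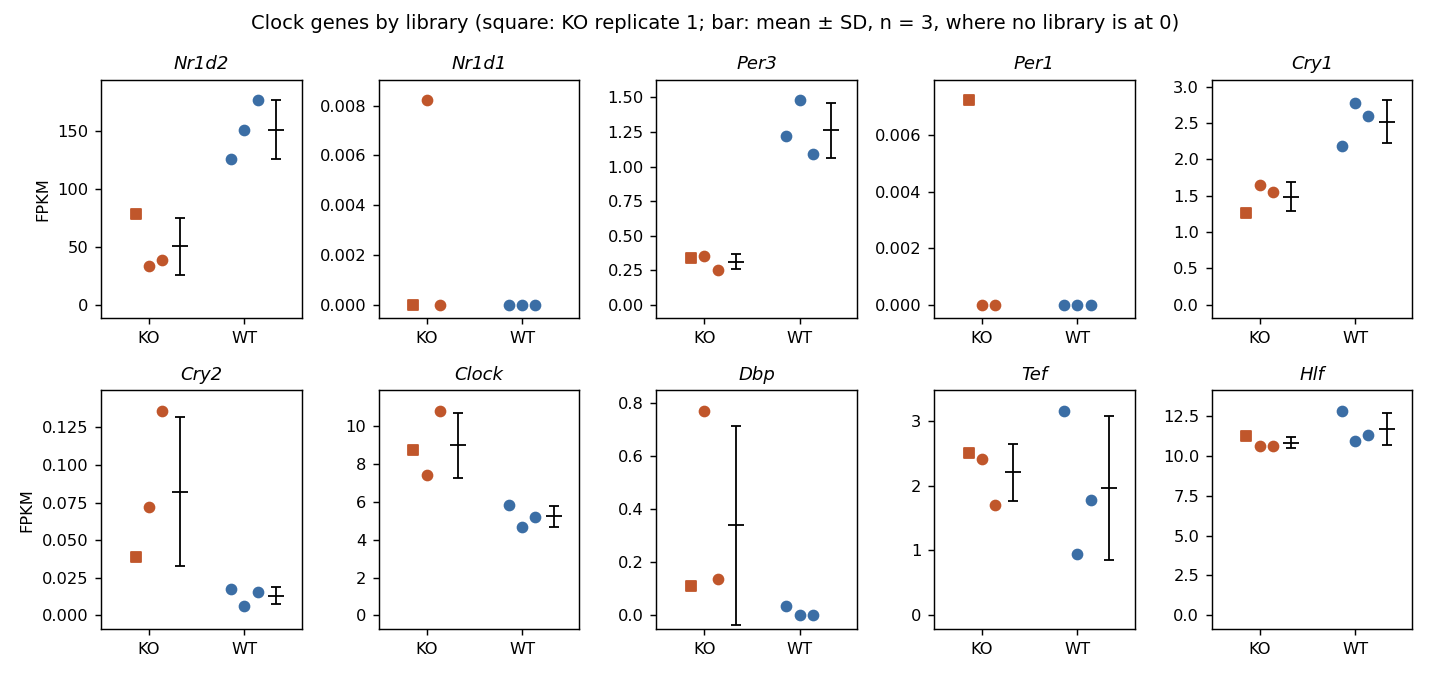
FPKM of the 10 clock genes in each library, with a linear axis from 0 for each gene; points are libraries labelled knockout (KO, left) and wild type (WT, right), squares are knockout replicate 1, and bars are mean ± SD (n = 3) where no library was at 0. Nr1d2 lay between 33.8 and 78.8 FPKM in the KO libraries and between 126 and 177 FPKM in the WT libraries, whereas Hlf stayed between 10.6 and 12.8 FPKM in all 6.

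Nr1d2 encodes REV-ERB beta, a heme-binding nuclear receptor that represses genes with ROR elements, and it was the most abundant of the 10 transcripts in every library. The gene spans bases 18204054 to 18239127 of chromosome 14 on the minus strand (GRCm38 coordinates from GENCODE M21, as for all genes here). It measured 78.8, 33.8 and 38.7 FPKM in knockout replicates 1, 2 and 3, and 126, 151 and 177 FPKM in wild type replicates 1, 2 and 3. Every library labelled knockout was below every library labelled wild type, and knockout replicate 1, the library with kidney transcripts, was the highest of its group. The mean was 50.4 ± 24.7 FPKM in the libraries labelled knockout and 152 ± 25.8 FPKM in those labelled wild type (SD, n = 3 each), a ratio of 0.333. On the log2 scale the difference was -1.66, with an SE of 0.32 and a 95% interval from -2.39 to -0.92 (limma adjusted p = 0.0033). Without knockout replicate 1 it was -2.02 (limma adjusted p = 0.0004).

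The RefSeq promoter window of Nr1d2 is shown because this gene was the most abundant of the 4 called. It holds a single copy of AGGTCA, the core of the element bound by REV-ERB and ROR receptors, printed in capitals. Its first base lies 77 bases before the annotated start. The window covers chr14:18239057-18239356 (GRCm38.p6, minus strand), 250 bases before the start to 50 bases after it.
Nr1d2 promoter: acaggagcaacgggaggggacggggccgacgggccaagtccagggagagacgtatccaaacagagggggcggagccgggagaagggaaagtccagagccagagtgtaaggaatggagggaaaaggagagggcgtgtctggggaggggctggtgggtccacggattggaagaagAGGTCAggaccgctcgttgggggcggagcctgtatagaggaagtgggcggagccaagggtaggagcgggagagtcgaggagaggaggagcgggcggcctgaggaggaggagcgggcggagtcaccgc

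Nr1d1, which encodes REV-ERB alpha, the close relative of REV-ERB beta, was at or next to 0. It was listed at 0, 0.00822 and 0 FPKM in knockout replicates 1, 2 and 3 and at 0 in all 3 labelled wild type. The value of knockout replicate 2 corresponds to 1 read. A count of 0 allows up to 3 reads per library, which for this transcript is 0.0201 to 0.0477 FPKM depending on the depth, and this covers counting error only. No difference was therefore detectable at this depth. As background, Nr1d1 is among the most strongly cycling transcripts of mouse liver, with a deep daily trough.

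Among the repressors of CLOCK and BMAL1, Per3 was lower in the libraries labelled knockout. Per3 encodes a PERIOD protein, a partner of the cryptochromes, and spans bases 151003652 to 151044665 of chromosome 4 on the minus strand. It measured 0.335, 0.350 and 0.249 FPKM in knockout replicates 1, 2 and 3, and 1.22, 1.48 and 1.09 FPKM in wild type replicates 1, 2 and 3. The groups did not overlap, and the libraries within each group lay close together. The means were 0.311 ± 0.0544 FPKM in the libraries labelled knockout and 1.26 ± 0.194 FPKM in those labelled wild type (SD, n = 3 each), a ratio of 0.247. These values rest on 64 to 133 reads per library labelled knockout and 215 to 689 reads per library labelled wild type. The log2 difference was -0.78 (SE 0.12, limma adjusted p = 0.0013), and -1.73 with a pseudocount of 0.1, which compresses low values less. Without knockout replicate 1 it was -0.80 (limma adjusted p = 0.0037).

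Cry1 encodes a cryptochrome, the main inhibitor of CLOCK and BMAL1, and was also lower. The gene spans bases 85131700 to 85185064 of chromosome 10, minus strand. It measured 1.26, 1.64 and 1.55 FPKM in knockout replicates 1, 2 and 3, and 2.19, 2.77 and 2.59 FPKM in wild type replicates 1, 2 and 3. No value of one group fell within the other. The means were 1.48 ± 0.201 FPKM in the libraries labelled knockout and 2.52 ± 0.300 FPKM in those labelled wild type (SD, n = 3 each). Its log2 difference of -0.50 had an SE of 0.15 and a 95% interval from -0.85 to -0.16 (limma adjusted p = 0.022). The call was lost without knockout replicate 1, knockout replicate 3, wild type replicate 2 or wild type replicate 3, with limma adjusted p of 0.063, 0.054, 0.068 and 0.07 in this order. After removal of trends on GC content and transcript length from each library the difference was -1.19 (limma adjusted p = 0.00065).

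The promoter windows of Per3 and Cry1 are shown because both genes were lower in the libraries labelled knockout and carry different clock elements. The capitals in Per3 mark 2 copies of the D-box TTATGTAA, which begin 205 and 158 bases before the start. The capitals in Cry1 mark the E-box CACGTG, which begins 60 bases before the start. The windows are chr4:151044616-151044915 and chr10:85185005-85185304 (GRCm38.p6, both minus strand, RefSeq).
Per3 promoter: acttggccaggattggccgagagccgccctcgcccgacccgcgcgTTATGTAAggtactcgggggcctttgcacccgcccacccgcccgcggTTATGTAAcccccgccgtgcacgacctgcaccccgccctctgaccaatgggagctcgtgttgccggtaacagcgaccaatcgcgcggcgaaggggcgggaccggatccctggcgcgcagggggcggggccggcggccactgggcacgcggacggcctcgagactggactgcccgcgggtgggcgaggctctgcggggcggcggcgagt
Cry1 promoter: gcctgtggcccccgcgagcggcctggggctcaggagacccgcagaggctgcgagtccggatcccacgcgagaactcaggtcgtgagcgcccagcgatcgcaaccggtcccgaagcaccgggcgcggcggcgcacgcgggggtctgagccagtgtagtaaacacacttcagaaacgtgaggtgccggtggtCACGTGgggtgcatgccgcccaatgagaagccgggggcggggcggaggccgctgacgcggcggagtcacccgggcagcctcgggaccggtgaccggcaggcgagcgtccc

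All 10 clock genes matched RefSeq promoter windows, 14 windows in all, because Per1, Tef and Clock have several annotated starts. On either strand, CACGTG was found in windows of 3 of the 10 genes (Per1, Cry1 and Tef) and in 7.15% of all 32851 windows of this length. The D-box letters TTATGTAA or TTACGTAA were found for 1 gene, Per3, and in 1.06% of all windows. AGGTCA was found for 3 genes (Nr1d2, Per1 and Clock) and in 16.3% of all windows. The 3 motifs do not overlap one another in these windows, and a match is a description of the letters only. AGGTCA was thus found both for Nr1d2, which was called lower, and for Clock, which was called higher. Genes with several windows had more room for a match than the single windows behind the shares. None of the 3 motifs was found for Nr1d1, Cry2, Dbp or Hlf in these windows. For Nr1d1, Cry2 and Hlf the bases at the RefSeq start were not found in a GENCODE M21 transcript of the gene.

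Per1, a further PERIOD gene that also responds to glucocorticoids, was at or next to 0 like Nr1d1. It was listed at 0.00724, 0 and 0 FPKM in knockout replicates 1, 2 and 3 and at 0 in all 3 labelled wild type, which is 1 read in all. The limit that a count of 0 allows was 0.011 to 0.026 FPKM per library, so no difference was detectable at this depth. Cry2, the other cryptochrome, measured 0.0387, 0.072 and 0.136 FPKM in knockout replicates 1, 2 and 3 and 0.0176, 0.00651 and 0.0155 FPKM in wild type replicates 1, 2 and 3. Its groups did not overlap, but all values were low and rested on 47 reads in the libraries labelled knockout and 8 in those labelled wild type. Scaled to depth, the read rate was 6.80 times as high in the libraries labelled knockout (95% exact binomial interval 3.18 to 16.7, counting error only). Permuting the labels of the 6 libraries exactly, two-sided, gave p = 0.1, the smallest that 3 against 3 allows. In a fit without a filter the limma adjusted p of Cry2 was 0.12. Cry1 and Cry2 therefore lay on opposite sides, with Cry1 lower and past the threshold and Cry2 higher in value and not past it.

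Clock encodes the bHLH-PAS activator that binds E-boxes together with BMAL1. It was the only one of the 6 tested clock genes called higher. The gene spans bases 76209868 to 76304792 of chromosome 5, minus strand. It measured 8.76, 7.4 and 10.8 FPKM in knockout replicates 1, 2 and 3, and 5.81, 4.67 and 5.19 FPKM in wild type replicates 1, 2 and 3. All libraries labelled knockout lay above all libraries labelled wild type. The means were 8.98 ± 1.70 FPKM in the libraries labelled knockout and 5.22 ± 0.573 FPKM in those labelled wild type (SD, n = 3 each), a ratio of 1.72. The difference was 0.67 on the log2 scale, with an SE of 0.18 and a 95% interval from 0.25 to 1.09 (limma adjusted p = 0.015), and 0.68 without knockout replicate 1 (limma adjusted p = 0.031). The call was lost without knockout replicate 3 (0.54, limma adjusted p = 0.058) or wild type replicate 2 (0.61, limma adjusted p = 0.054), and under every rescaling of the libraries tried. Median centring gave 0.39 (limma adjusted p = 0.093), quantile normalization 0.45 (limma adjusted p = 0.064) and scaling without mitochondrial transcripts 0.43 (limma adjusted p = 0.069).

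The 3 PAR bZIP genes encode proteins that bind D-boxes and drive daily rhythms of detoxification enzymes in liver. Hlf and Tef missed the threshold, and Dbp was under the filter. Hlf was the steadiest of the 6 tested clock genes, with 11.2, 10.6 and 10.6 FPKM in knockout replicates 1, 2 and 3 and 12.8, 10.9 and 11.3 FPKM in wild type replicates 1, 2 and 3. The groups overlapped, and the log2 difference was -0.10, with a 95% interval from -0.44 to 0.25 (limma adjusted p = 0.61). Tef measured 2.50, 2.41 and 1.70 FPKM in knockout replicates 1, 2 and 3 and 3.15, 0.952 and 1.77 FPKM in wild type replicates 1, 2 and 3. Its spread within the libraries labelled wild type covered all values of those labelled knockout, and the log2 difference was 0.17, with a 95% interval from -0.45 to 0.80 (limma adjusted p = 0.61). Its sign turned under median centring, quantile normalization, removal of GC and length trends, or without wild type replicate 2. Neither interval excludes a change of the size seen in Clock for Tef or a small fall for Hlf.

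Dbp, the PAR bZIP gene with the best known daily swing in liver, was almost absent from the libraries labelled wild type. It was listed at 0.109, 0.769 and 0.138 FPKM in knockout replicates 1, 2 and 3, and at 0.0371, 0 and 0 FPKM in wild type replicates 1, 2 and 3. In reads this is 8, 91 and 11 in the libraries labelled knockout and 4, 0 and 0 in those labelled wild type, with knockout replicate 2 far above the rest. Scaled to depth, the read rate was 31.8 times as high in the libraries labelled knockout (95% exact binomial interval 12.1 to 119, counting error only), and 9.74 times without knockout replicate 2 (3.24 to 39.4). A two-sided exact permutation test gave p = 0.1, the smallest possible, and without a filter the limma adjusted p was 0.21. The interval covers counting error only and not the spread between libraries of a group.

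**Figure D2:**
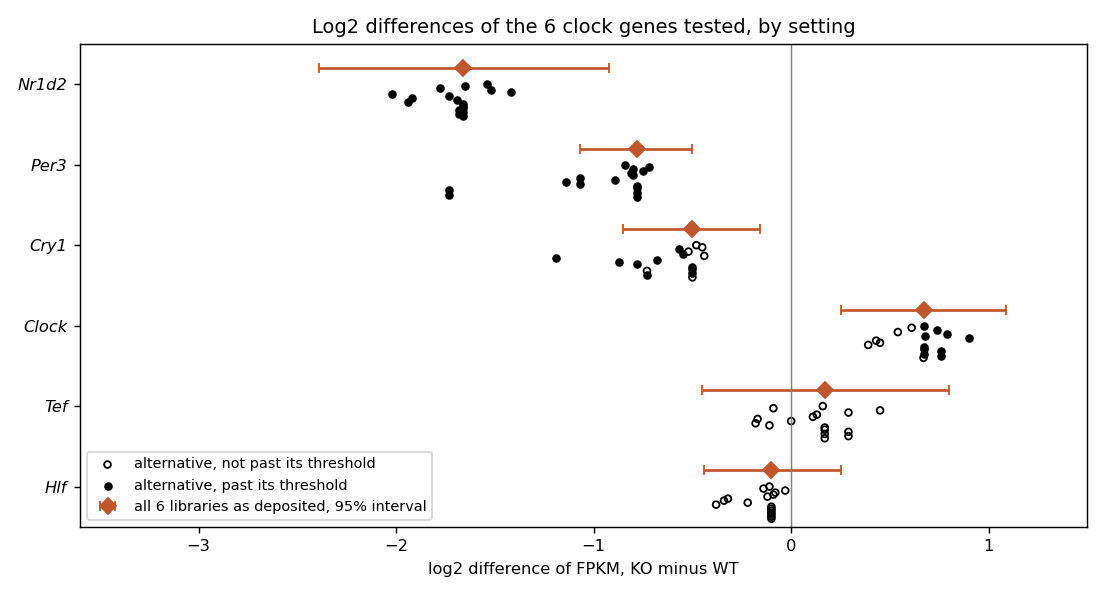
Log2 difference of FPKM, libraries labelled knockout (KO) minus wild type (WT), for the 6 clock genes tested; diamonds with bars are the fit of all 6 libraries as deposited with 95% intervals, and circles are the alternative settings, filled where past their threshold. Nr1d2 ran from -2.02 to -1.42 and Per3 from -1.73 to -0.72, filled throughout, whereas Clock (0.39 to 0.90) and Cry1 (-1.19 to -0.44) have open circles.

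Ratios between members within a library do not depend on how libraries are scaled to each other. The ratio of Nr1d2 to Clock FPKM was 9.0, 4.57 and 3.59 in knockout replicates 1, 2 and 3, and 21.6, 32.5 and 34.1 in wild type replicates 1, 2 and 3. Since the 2 genes were called in opposite directions without overlap, this ratio had to separate the groups, and it is given as a description. The ratio of Cry1 to Clock averaged 0.17 ± 0.0452 in the libraries labelled knockout and 0.489 ± 0.109 in those labelled wild type (SD, n = 3 each). For the same reason this ratio too had to separate the groups. Against the steady Hlf, Nr1d2 stood at 4.63 ± 2.10 in the libraries labelled knockout and 13.2 ± 3.0 in those labelled wild type (SD, n = 3 each). A ratio within a library shows that 2 genes changed unequally and not which of them changed.

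**Figure D3:**
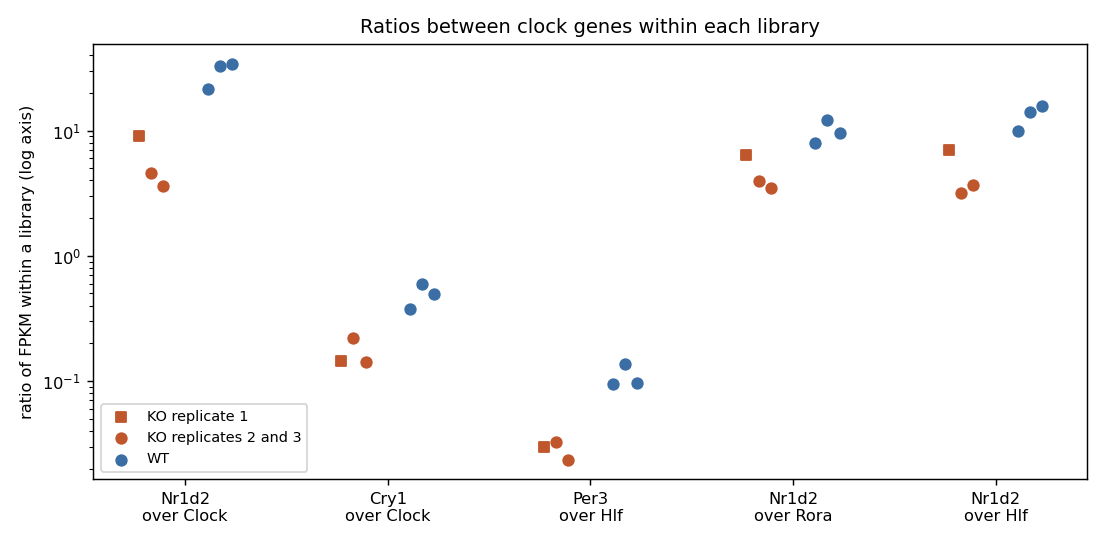
Ratio of the FPKM of 2 clock genes within each library, on a log axis, for libraries labelled knockout (KO, left of each pair) and wild type (WT); squares are knockout replicate 1. The ratio of Nr1d2 to Clock was 3.59 to 9.0 in the KO libraries and 21.6 to 34.1 in the WT libraries, and no ratio overlapped between the groups. The first gene of every ratio was itself called lower without overlap, so the ratios are a description only.

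The members also differed in how far libraries of the same label lay apart. On the log2(FPKM + 1) scale the spread within groups was 0.487 for Nr1d2 and 0.412 for Tef, larger than in 91% and 85% of all genes tested. It was 0.0845 for Hlf and 0.0967 for Per3, larger than in only 4% and 6%, although at the low level of Per3 this scale compresses differences. The median over all genes tested was 0.233. Clock, at 0.196, was close to it.

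The level at which a clock gene was recorded went with the base composition of its transcripts. The 4 members under the filter, Nr1d1, Per1, Cry2 and Dbp, had 54.3% to 58.9% GC, and the 6 members above it 41.5% to 52.6%. Over all genes with any signal, 43.0% of those with 40 to 45% GC reached the filter, against 5.07% of those with 55% GC or more. Apoa1, an apolipoprotein made in large amounts by hepatocytes, was likewise listed at only 0.396, 1.94 and 0.454 FPKM in knockout replicates 1, 2 and 3, and at 0.0449, 0 and 0.0791 FPKM in wild type replicates 1, 2 and 3. A value near 0 for a member of high GC content therefore does not by itself show that the gene was silent. The part of base composition in the differences between groups was not tested gene by gene. After removal of GC and length trends, Nr1d2, Per3 and Cry1 were still lower and Clock higher, with log2 differences of -1.73, -1.07, -1.19 and 0.90.

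**Figure D4:**
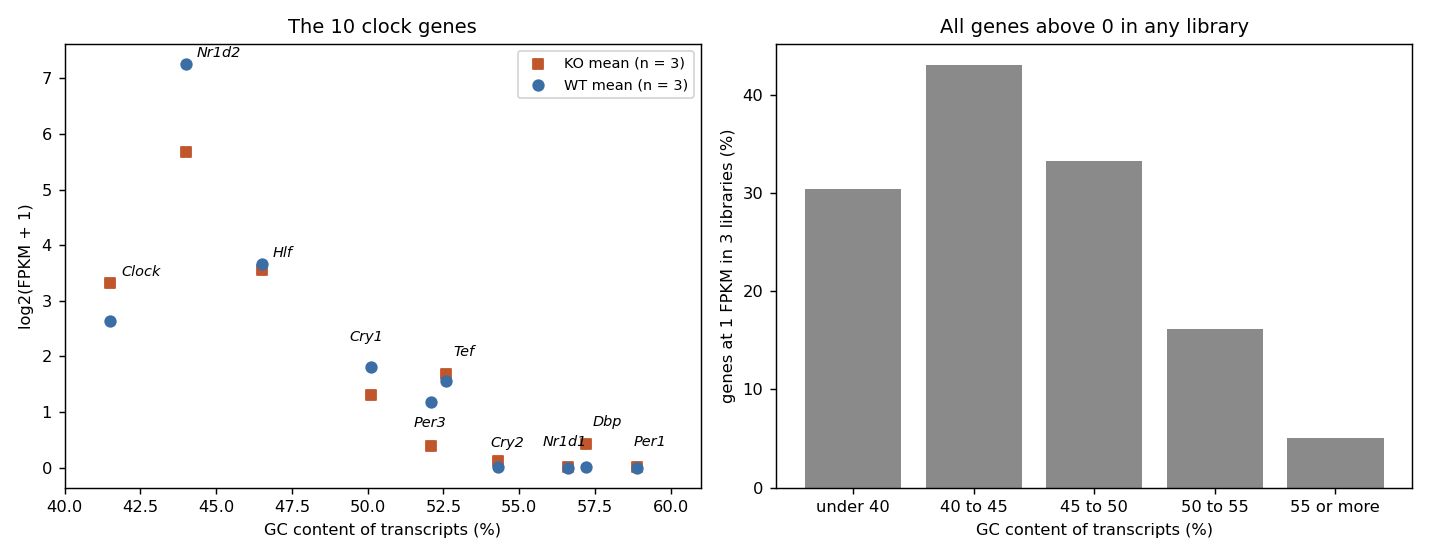
Left, mean log2(FPKM + 1) of the 10 clock genes (libraries labelled knockout, KO, and wild type, WT, n = 3 each) against the GC content of their transcripts. Right, share of all genes above 0 in any library that reached 1 FPKM in 3 libraries, by GC content; the share was 43.0% at 40 to 45% GC and 5.07% at 55% GC or more, and the 4 clock genes near 0 lay above 54% GC.

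Rora, which encodes an activator at the elements that REV-ERB proteins repress, measured 10.7 ± 1.91 FPKM in the libraries labelled knockout and 15.6 ± 3.0 FPKM in those labelled wild type (SD, n = 3 each), and did not pass the threshold (limma adjusted p = 0.066). It passed after median centring (-0.79, limma adjusted p = 0.012), quantile normalization (0.029), scaling without mitochondrial transcripts (0.016) or removal of GC and length trends (0.041), and without wild type replicate 2 (-0.65, limma adjusted p = 0.046). Rorb was listed at 0 in 4 of 6 libraries.

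Arntl, which encodes BMAL1, was low in all libraries and under the filter. It measured 0.201, 0.655 and 1.08 FPKM in knockout replicates 1, 2 and 3, and 0.155, 0.175 and 0.0974 FPKM in wild type replicates 1, 2 and 3. Every library labelled knockout was above every library labelled wild type. A two-sided exact permutation test gave p = 0.1, the smallest possible, and without a filter the limma adjusted p was 0.14. Its relative Arntl2 averaged 0.202 ± 0.139 FPKM in the libraries labelled knockout and 0.0515 ± 0.00273 FPKM in those labelled wild type (SD, n = 3 each, limma adjusted p = 0.19 without a filter).

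Among the smaller repressors, Ciart, which inhibits CLOCK and BMAL1, measured 0.527 ± 0.2 FPKM in the libraries labelled knockout and 1.06 ± 0.349 FPKM in those labelled wild type (SD, n = 3 each). Without a filter its limma adjusted p was 0.13. Bhlhe40, an E-box repressor, scattered widely in the libraries labelled knockout, with 12.2, 2.88 and 8.59 FPKM in replicates 1, 2 and 3, around the 4.46, 7.00 and 5.02 FPKM of wild type replicates 1, 2 and 3 (limma adjusted p = 0.58). Without knockout replicate 2 it passed the threshold, with a log2 difference of 0.81 (limma adjusted p = 0.034). Bhlhe41 averaged 0.386 ± 0.205 FPKM in the libraries labelled knockout and 0.154 ± 0.0618 FPKM in those labelled wild type (SD, n = 3 each, limma adjusted p = 0.19 without a filter). Nfil3, the repressor at D-boxes, rested on 3, 4 and 3 reads in knockout replicates 1, 2 and 3 and on none in the libraries labelled wild type, against a limit of 3 reads per library. Without a filter its limma adjusted p was 0.019, and 0.041 with a pseudocount of 0.1 as well, but at so few reads no fold is given.

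**Figure D5:**
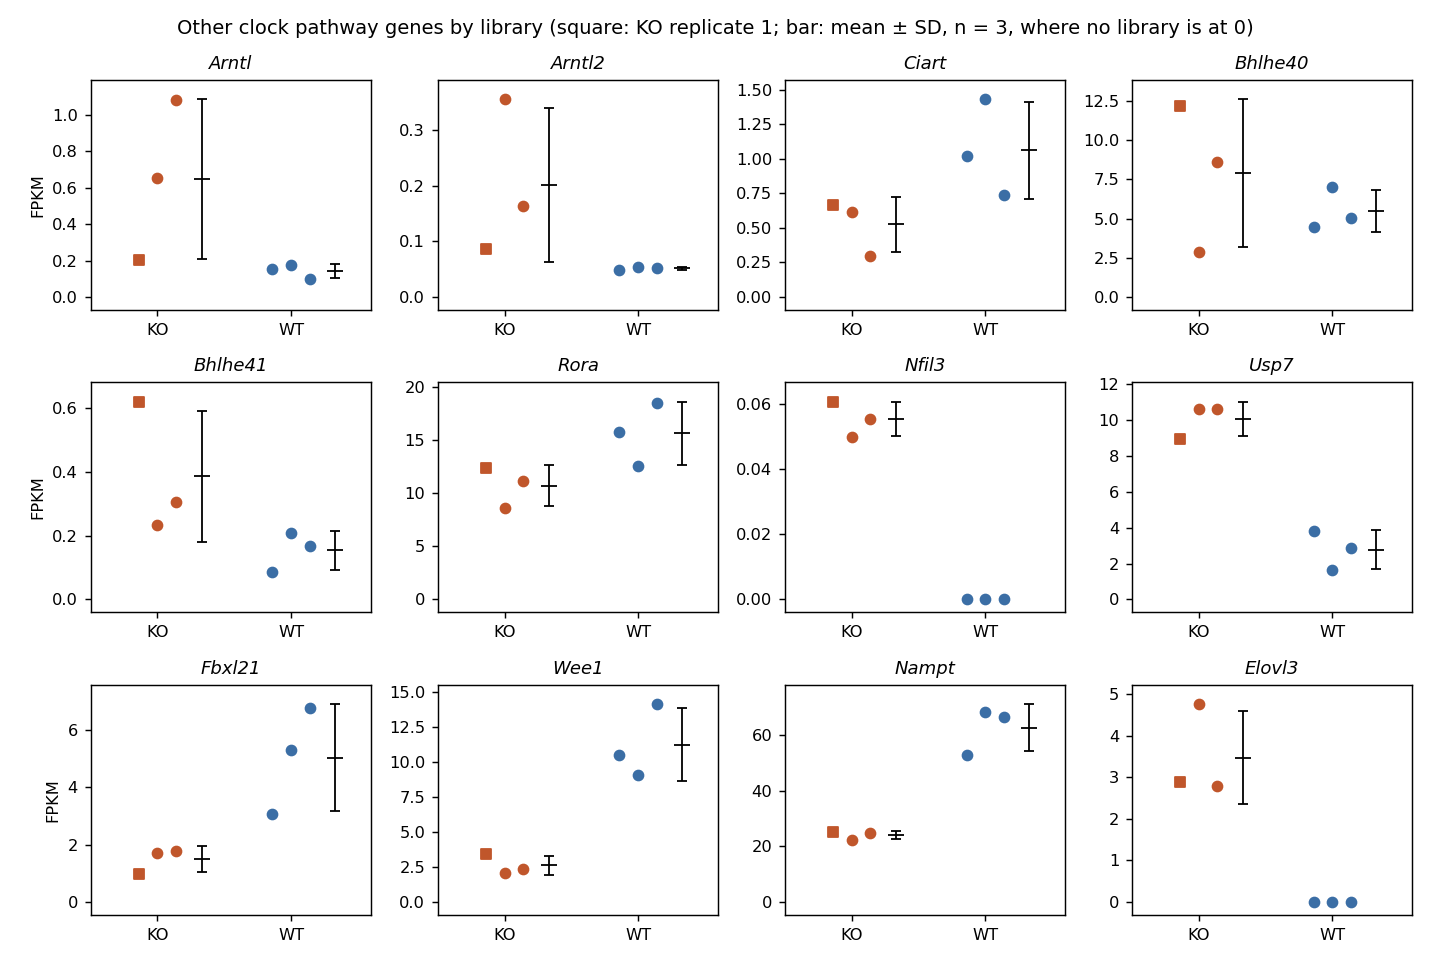
FPKM of 12 other clock pathway genes in each library, with a linear axis from 0 for each gene; points are libraries labelled knockout (KO, left) and wild type (WT, right), squares are knockout replicate 1, and bars are mean ± SD (n = 3) where no library was at 0. Wee1 lay between 2.09 and 3.40 FPKM in the KO libraries and between 9.05 and 14.1 FPKM in the WT libraries, and Arntl was at most 1.08 FPKM in any library.

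Beyond the 10 genes, 83 symbols were listed for the clock loops, modifiers of clock proteins, cofactors, rhythmic liver genes and timing cues. Of these 78 had a usable row, 46 were tested, and in the libraries labelled knockout 10 of them were higher and 10 lower. Their median log2 difference was -0.11, against 0.12 over all genes tested. As shares, 21.7% were higher and 21.7% lower, against 33.7% and 20.4% of all genes tested. The counts of single lists below stand beside the same 33.7% and 20.4%. Without knockout replicate 1 the counts of the 46 genes were 12 and 12 (26.1% each), against 33.2% and 19.0% of all genes tested. Median centring gave 9 higher and 18 lower (19.6% and 39.1%). Over all genes tested it gave 1443 higher and 1891 lower (25.4% and 33.3%), against 1911 and 1157 as deposited. Removal of GC and length trends gave 4 higher and 15 lower (8.70% and 32.6%), against 25.3% and 27.1% of the 5539 genes tested with it.

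Of 9 tested modifiers of clock protein stability, 1 was higher and 2 were lower. Usp7, a deubiquitinase known to stabilise CRY1, was higher, with 10.0 ± 0.927 FPKM in the libraries labelled knockout and 2.77 ± 1.09 FPKM in those labelled wild type (SD, n = 3 each, limma adjusted p = 0.001). Fbxl21, an F-box protein that binds cryptochromes, was lower, with 1.49 ± 0.454 FPKM in the libraries labelled knockout and 5.03 ± 1.86 FPKM in those labelled wild type (SD, n = 3 each, limma adjusted p = 0.0051).

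Of 9 tested cofactors, 1 was higher and 2 were lower. Nono, an RNA-binding partner of PERIOD proteins encoded on the X chromosome, averaged 37.6 ± 5.14 FPKM in the libraries labelled knockout and 17.3 ± 9.30 FPKM in those labelled wild type (SD, n = 3 each, limma adjusted p = 0.016). Sirt1, a deacetylase that depends on NAD, averaged 11.3 ± 3.0 FPKM in the libraries labelled knockout and 21 ± 4.75 FPKM in those labelled wild type (SD, n = 3 each, limma adjusted p = 0.017). Kmt2a, a histone methyltransferase, was lower at 1.22 ± 0.220 FPKM in the libraries labelled knockout and 2.45 ± 0.638 FPKM in those labelled wild type (SD, n = 3 each, limma adjusted p = 0.02). None of the 3 calls held without each library in turn. Nono was lost without knockout replicate 2 or wild type replicate 2 or 3 (limma adjusted p of 0.053, 0.06 and 0.054) and with GC and length trends removed (0.061), no filter (0.057) or scaling without mitochondrial transcripts (0.053). Sirt1 was lost without knockout replicate 2 or wild type replicate 3 (limma adjusted p of 0.056 and 0.061) and with no filter (0.052), and Kmt2a without knockout replicate 2 or wild type replicate 2 or 3 (0.068, 0.056 and 0.072).

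Of 10 tested genes known to cycle in mouse liver, 2 were higher and 2 lower. Wee1, a cell cycle kinase known to be driven by CLOCK and BMAL1, measured 3.40, 2.09 and 2.32 FPKM in knockout replicates 1, 2 and 3 and 10.5, 9.05 and 14.1 FPKM in wild type replicates 1, 2 and 3. Its log2 difference was -1.76 (SE 0.22, limma adjusted p = 0.0005), with no overlap between groups. Nampt, the enzyme that limits NAD salvage and also a known target of CLOCK and BMAL1, averaged 24.1 ± 1.57 FPKM in the libraries labelled knockout and 62.8 ± 8.44 FPKM in those labelled wild type (SD, n = 3 each, limma adjusted p = 0.00053). Both calls held under every alternative that tested them. Elovl3, a fatty acid elongase that cycles in liver and is also known as a male-biased gene there, measured 2.89, 4.76 and 2.79 FPKM in knockout replicates 1, 2 and 3 and 0 in all 3 libraries labelled wild type. Against a limit of 3 reads per wild type library it was at least 70.7-fold higher. Avpr1a, a vasopressin receptor, averaged 24.7 ± 10.5 FPKM in the libraries labelled knockout and 11.8 ± 0.775 FPKM in those labelled wild type (SD, n = 3 each, limma adjusted p = 0.034), a call lost without any library except knockout replicate 1 (limma adjusted p of 0.066 to 0.1). With GC and length trends removed its log2 difference was 0.06, against 0.92 as deposited (limma adjusted p = 0.86), and the call was also lost with the replicate number as a block (0.054), with no filter (0.1) and under all 3 rescalings (0.052 to 0.093).

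Among known targets of the PAR bZIP factors, 1 of 3 tested was called. Cyp2a5, a cytochrome P450, averaged 7.82 ± 0.823 FPKM in the libraries labelled knockout and 2.13 ± 0.548 FPKM in those labelled wild type (SD, n = 3 each, limma adjusted p = 0.00046), although reads may be split with its near-identical copy Cyp2a4. With GC and length trends removed the log2 difference of Cyp2a5 was 0.62, against 1.5 as deposited, and only just passed the threshold (limma adjusted p = 0.049). Among known targets of REV-ERB, 3 were tested, and Clock and Elovl3 were higher while Cry1 was lower. Of these, Elovl3 reached 1 FPKM only in the libraries labelled knockout and so had to be higher in order to be tested.

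Genes that follow temperature, glucocorticoid and feeding cues went both ways. Of 7 tested genes of temperature and glucocorticoid cues, 2 were higher and 2 lower. The cold-inducible RNA-binding protein gene Rbm3 averaged 15.9 ± 0.536 FPKM in the libraries labelled knockout and 31.9 ± 2.24 FPKM in those labelled wild type (SD, n = 3 each, limma adjusted p = 0.0012). The heat shock gene Hsph1 measured 2.25, 9.96 and 8.96 FPKM in knockout replicates 1, 2 and 3 and 0.791, 0.195 and 0.397 FPKM in wild type replicates 1, 2 and 3 (limma adjusted p = 0.0046), and it reached 1 FPKM only in the libraries labelled knockout. Tat, tyrosine aminotransferase, which glucocorticoids induce, averaged 195 ± 52.6 FPKM in the libraries labelled knockout and 66.7 ± 31.8 FPKM in those labelled wild type (SD, n = 3 each, limma adjusted p = 0.0052). Sgk1, a kinase that glucocorticoids also induce, was lower, with 5.73 ± 2.35 FPKM in the libraries labelled knockout and 13.7 ± 3.78 FPKM in those labelled wild type (SD, n = 3 each, limma adjusted p = 0.011).

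Of 7 tested fasting and feeding genes, 2 were higher and 2 lower. Glucose-6-phosphatase, G6pc, measured 186, 41.9 and 23.8 FPKM in knockout replicates 1, 2 and 3 and 7.62, 6.99 and 6.90 FPKM in wild type replicates 1, 2 and 3 (limma adjusted p = 0.017), and the call was lost without wild type replicate 3 (limma adjusted p = 0.063). Kidney is also known to express G6pc, and knockout replicate 1 was the highest; without it the log2 difference was 2.0, against 2.84 with it. Cpt1a, which admits fatty acids to mitochondria, was lower at 7.48 ± 1.15 FPKM in the libraries labelled knockout and 15.3 ± 1.47 FPKM in those labelled wild type (SD, n = 3 each, limma adjusted p = 0.0024). Ppargc1a, a coactivator induced by fasting, was lower at 3.91 ± 0.890 FPKM in the libraries labelled knockout and 8.25 ± 1.39 FPKM in those labelled wild type (SD, n = 3 each, limma adjusted p = 0.006). Genes induced by fasting thus lay on both sides. After removal of GC and length trends, the calls of Tat and G6pc were lost (limma adjusted p of 0.13 and 0.063).

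Markers of the cells in the samples also moved with the labels, and their part in the clock gene differences was not tested. In bulk tissue, fewer cells of a type and less RNA per cell cannot be told apart. The summed FPKM of 4 measured stellate cell markers was 21.3 to 32.2 in the libraries labelled knockout and 76.1 to 130 in those labelled wild type, and that of 6 endothelial markers was 5.90 to 7.24 and 10.8 to 11.8 in this order. For 8 measured hepatocyte markers the sums were 2210 to 3200 FPKM in the libraries labelled knockout and 1350 to 1730 FPKM in those labelled wild type. For 6 Kupffer cell markers they were 13.6 to 56.1 and 22.3 to 40.0 FPKM, for 4 cholangiocyte markers 29.3 to 50.9 and 50.3 to 68.0 FPKM, and for 3 lymphocyte markers 0.768 to 6.53 and 1.98 to 2.72 FPKM in the same order. In the libraries labelled wild type the hepatocyte sum was mostly Apob, at 999 to 1290 FPKM, against 1030 to 1100 FPKM in those labelled knockout. Apob and Hnf4a were not called (limma adjusted p of 0.57 and 0.16), while Alb, Ttr, Serpina1c and Fabp1 were called higher. The cholangiocyte sum was mostly Spp1, which was not called (limma adjusted p = 0.094), while Sox9 was called higher (limma adjusted p = 0.019). In the libraries labelled knockout the Kupffer cell sum was mostly Vsig4 and Cd5l, neither called. Adgre1 and Timd4 were both called lower (limma adjusted p of 0.0038 and 0.00081). In the libraries labelled wild type Adgre1 and Timd4 measured 5.34 to 6.02 and 6.41 to 7.72 FPKM, beside 8.3 to 20.3 FPKM of Vsig4. The endothelial sum was mostly Lyve1, Kdr and Oit3, all called lower (limma adjusted p of 0.0067, 0.029 and 0.022). Pecam1, Stab2 and Clec4g, under the filter, went the other way. Their means were 0.0837, 0.0831 and 0.545 FPKM in the libraries labelled knockout and 0, 0.0469 and 0.199 FPKM in those labelled wild type. The stellate cell sum was mostly Dcn, and Dcn, Reln and Lrat were called lower (limma adjusted p of 0.0018, 0.00036 and 0.021). Col1a1, under the filter, went the other way, with means of 0.052 FPKM in the libraries labelled knockout and 0.026 FPKM in those labelled wild type. The 6 measured kidney markers summed to between 4.33 and 5280 FPKM in the libraries labelled knockout, highest in knockout replicate 1, and to 0.38 to 1.44 FPKM in those labelled wild type. Albumin (Alb), which marks hepatocytes, was at 743 to 1610 FPKM in the libraries labelled knockout and 261 to 425 FPKM in those labelled wild type, while the hepatocyte gene Apoc3, the Kupffer cell genes Clec4f and Csf1r, the endothelial gene Pecam1 and the kidney gene Slc22a6 were listed at 0 in every library labelled wild type.

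The genes whose pattern over the 6 libraries was most like that of Nr1d2 were Vps13b, Pdp2, Golm2, Fnip1 and Tnpo1, with Pearson's r on log2(FPKM + 1) of 0.9986, 0.9951, 0.9933, 0.9928 and 0.9915. Pdp2, a pyruvate dehydrogenase phosphatase, averaged 6.49 ± 2.67 FPKM in the libraries labelled knockout and 14.4 ± 1.96 FPKM in those labelled wild type (SD, n = 3 each). All 5 were lower in the libraries labelled knockout, and how far the correlation rests on the separation of the groups was not tested. An r above 0.95 was reached by 189 genes, or 3.33% of those tested.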

How the data were processed

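Mouse liver RNA-seq libraries, 6 in all, were used, 3 labelled Cdkl3-/- and 3 labelled wild type. HISAT2 and GRCm39 are named in the submitters' processing notes; no version, counting tool or annotation is given in the sources used here. The authors deposited 1 FPKM value per row, per the file headers. The header of 1 table carries another code than the title of its sample, whose own record was followed. Identifier and symbol named the same gene in 0 of 24927 rows. With exon lengths from GENCODE M21 (GRCm38) by symbol, 98.9% of 43169 low values were whole reads to within 0.15 read, up to 40 reads, against 30.5% by identifier and 35.9% in the 1787 chromosome 1 rows, so symbols were used and those rows left out, as were 119 rows without a symbol. The same steps gave the reads per gene and the depth, 20460939 to 48614290 reads per library.

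Log2(FPKM + 1) was fitted with limma 3.58.1 (R 4.3.3, mean-variance trend, robust moderation) over the 5673 genes that reached 1 FPKM in 3 or more libraries, with label as the only term; this scale understates changes of low genes. The fit was tested on simulated data with independent noise in each gene, few changed genes and no shift shared across a library. Differences are the libraries labelled knockout minus those labelled wild type. Members under the filter were compared by exact permutation and by reads with exact binomial intervals, which cover counting error only, as do the limits of 3 reads for a count of 0. GC content is from GENCODE M21 transcripts and promoter windows from RefSeq (GRCm38.p6). Named genes were the 10 members, all measured genes of the loop lists, up to 4 called genes of each other list and the 5 genes most like the most abundant member; Cdkl3, Apoa1, Ddx3y and cell markers were added as checks. Some called genes of the lists are counted but not reported here by name. The members and lists were chosen with earlier results of these data known. The rest used Python 3.11.15 with scipy 1.17.1, pandas 2.3.3 and numpy 2.4.6; figures used matplotlib 3.10.9.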

Additional observations from a re-analysis of the deposited data

How the results depend on the processing

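Alternatives were another pseudocount, other filters and thresholds, no robust moderation, 3 rescalings, removal of trends on GC content and length, a replicate block and leaving out each library over the same 5673 genes. Nr1d2 (17 alternatives, -2.02 to -1.42) and Per3 (16, -1.73 to -0.72) kept direction and call in all of them; Clock and Cry1 kept direction in all 16 and the call in 10 each, and for Cry1 a pseudocount of 0.1 with no filter, chosen after seeing the data, gave adjusted p = 0.057. Clock genes higher numbered 0, not 1, at adjusted p under 0.01, after median centring, quantile normalization or scaling without mitochondrial transcripts, and 0 to 1 when a library was left out. Those lower numbered 2, not 3, at adjusted p under 0.01 and with a pseudocount of 0.1 and no filter, and 2 to 3 when a library was left out. At 10 FPKM in 3 libraries the counts were 0 higher and 1 lower, but there Clock, Per3 and Cry1 were under the filter and not tested. Over all genes 1911 were higher and 1157 lower; the higher numbered 3171 with no filter, 3298 with a pseudocount of 0.1 and no filter and 468 at 10 FPKM, and the lower 656 at adjusted p under 0.01, 559 at 10 FPKM, 1891 after median centring and 1761 after quantile normalization. Median centring moved the median difference from 0.12 to -0.16. Tef, not past the threshold under any alternative, turned to -0.11, -0.18 and -0.17 under median centring, quantile normalization and trend removal, and ran from -0.09 (without wild type replicate 2) to 0.45 (without wild type replicate 1) when a library was left out. Bhlhe40 turned to -0.17 with trend removal and ran from -0.07 (without knockout replicate 1) to 0.81 (without knockout replicate 2); the cause was not tested. The replicate block gave 1 clock gene higher and 3 lower, with 1740 and 1031 over all genes. Deviations of same-numbered libraries from their group means had r of -0.049, -0.096 and 0.18, and those of different numbers ran from -0.35 to 0.35. With so few libraries these values cannot decide whether the numbers pair them. Few reads, 0 to 91 per library, limit what can be said of Nr1d1, Per1, Cry2 and Dbp.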
